A study of Mus musculus with 8 samples.

Results

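The open chromatin around Pou3f1, Pou3f2 and Pou3f3 was described together with the counts of all POU motifs in single-nucleus ATAC-seq profiles of the mouse embryonic forebrain. A locus was taken as every peak within 50 kb of the GRCm38 body of a gene, and overlapping peaks of the 8 samples were merged into regions. The 3 loci held 50 of the 292532 merged regions, and 15 of the 50 had a peak in all 8 samples and were tested. A further set of 15 of the 579 deposited motif rows had names starting with POU. The samples were wild-type brain tissue, 2 each from the cortex (CTX) and from 3 ganglionic eminences (GE): the medial (MGE), the lateral (LGE) and the caudal one (CGE). They were labelled E12.5, an embryonic age in days, except CTX replicate 2, labelled E14.5, so that age and replicate cannot be told apart within CTX. In fits without CTX replicate 1 the CTX sample left is E14.5 and all GE samples are E12.5. Brain region and age cannot be told apart in those fits. No source used here gives the number of embryos behind a sample, and p-values therefore measure only the spread between these samples.

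POU factors bind DNA through a POU-specific domain and a POU homeodomain joined by a linker, and the classical site is an octamer read by both domains. Pou3f1, Pou3f2 and Pou3f3 are single-exon genes of class III of this family and are expressed in neural progenitors and neurons of the developing brain. Pou3f2 and Pou3f3 are known for partly redundant roles in cortical neurogenesis and upper-layer neurons, Pou3f2 for its use in converting fibroblasts to neurons, and Pou3f1 for Schwann cell myelination.

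The samples held 3465 to 6845 nuclei (39253 in all) and 77387940 to 138873845 counts in peaks. Pairs of libraries shared 15 to 56 barcodes. Of the label markers, Nkx2-1 and Lhx6 were highest in both MGE samples and Emx1 in both CTX samples. Others followed the labels less closely. Dlx5 was lower in LGE replicate 1 (53.2 CPM) than in CTX (58.7 and 61.7), with 241 to 401 in the other GE samples. The sum of the 10 GABAergic markers, Dlx5 among them, was 1104 CPM in LGE replicate 1. It was 529 and 710 in CTX and 1355 to 2799 in the other GE samples. Gsx2 was at 33.0 and 125 CPM in LGE and 102 and 93.0 in MGE. Nr2f2 was at 203 and 435 CPM in CGE and 217 and 197 in MGE. The CTX samples stood apart from each other. Of the 10 glutamatergic markers, 8 had a higher level in CTX replicate 1, the sample labelled E12.5, than in CTX replicate 2, the sample labelled E14.5, and 6 were above all GE samples in both. The age labels are used as given, and whether they are right for these 2 samples was not tested. The summed level of the 10 glutamatergic markers was 1382 and 948 CPM in CTX and 516 to 638 in GE. None of the 10 was at 0. Levels are given below as scaled CPM, which are counts in a region per 1000000 counts in the peaks of a sample, divided by the TMM factor of that sample. With total counts in place of TMM the median fold of all tested regions between CTX and GE shifted by -0.22 (log2), and the changes below are relative to the TMM scale. In summed nuclei, fewer cells of a type and less accessibility per cell cannot be told apart.

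The 3 loci differed in how the open chromatin was laid out. Pou3f1 (ENSMUSG00000090125.3, chr4:124656807-124660655, plus strand) had 25 regions, of which 11 were found in all 8 samples. Its window also reached Gm2164, Utp11 and Fhl3, and the region over its start held 18.4% to 40.7% of the locus counts. Pou3f2 (ENSMUSG00000095139.2, chr4:22482780-22488366, minus strand) had 5 regions, and its start region alone held 80.8% to 83.9% of the counts. Pou3f3 (ENSMUSG00000045515.3, chr1:42695768-42703176, plus strand) had 20 regions, of which 2 were found in all 8 samples. The region over its start held 81.1% to 98.4% of the counts.

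The start regions were unusually wide. The median tested region was 1533 bp wide. The Pou3f3 start region, chr1:42677698-42715287, spanned 37590 bp, wider than 99.987% of all tested regions, and also covered parts of the non-coding genes Pantr1 and Pantr2. It is called the Pou3f3 domain here. The Pou3f2 start region, chr4:22484438-22499220, spanned 14783 bp, and the Pou3f1 start region, chr4:124655824-124665177, spanned 9354 bp. Their CpG content was 2.61, 3.28 and 4.83 per 100 bp for Pou3f3, Pou3f2 and Pou3f1, against a median of 1.504 over all tested regions. Because peaks were called separately in each sample, such a region is a union of 1 or more peaks per sample.

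The octamer ATGCAAAT and the variant ATGCTAAT were searched on both strands of all regions. The 3 loci held 7 octamers, of which 6 lay in the Pou3f3 domain and 1 in the Pou3f2 start region, and 1 variant, which lay upstream of Pou3f1. The octamer was present in 11.8% of all tested regions and the variant in 7.72%. Density was 1.60 octamers per 10 kb in the Pou3f3 domain and 0.718 over all tested regions. Within the domain 3 octamers clustered between -12396 and -12222 bp from the Pou3f3 start, and a peak covered each of them in all 8 samples. This stretch of 222 bases (GRCm38, chr1:42683352-42683573, plus strand) is shown because it is the densest group of octamers at any member. Capitals mark the octamer, and the second match is read on the minus strand.
Pou3f3 octamer group: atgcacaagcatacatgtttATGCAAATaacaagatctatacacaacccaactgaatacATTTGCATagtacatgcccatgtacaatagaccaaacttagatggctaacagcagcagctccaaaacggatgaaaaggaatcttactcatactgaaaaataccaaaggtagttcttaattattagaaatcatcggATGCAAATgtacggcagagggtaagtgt

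A further upstream octamer of the domain resembled one of this group beyond the octamer itself. The matches at -13128 bp (chr1:42682620-42682667, plus strand) and at -12357 bp (chr1:42683391-42683438, minus strand) shared 35 of 40 flanking bases, while the next most similar pair of the domain shared 14 of 40. The match at -13128 bp lay under a peak in CTX replicate 1 only. The single matches of the other 2 members are printed for comparison, from chr4:22494136-22494183 (plus strand, -5797 bp from the Pou3f2 start, under a peak in all 8 samples) and from chr4:124621569-124621616 (plus strand, -35218 bp from the Pou3f1 start, under a peak in 7 samples, all but CTX replicate 2).
Pou3f3 at -13128 bp: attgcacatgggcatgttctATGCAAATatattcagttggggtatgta
Pou3f3 at -12357 bp: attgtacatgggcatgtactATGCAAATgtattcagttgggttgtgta
Pou3f2 at -5797 bp: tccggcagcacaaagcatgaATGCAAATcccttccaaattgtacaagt
Pou3f1 variant at -35218 bp: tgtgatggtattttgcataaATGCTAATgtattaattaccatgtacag

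The RefSeq promoter table (GRCm38.p6) held 2 of the 3 members. The 250 bases before the Pou3f3 start (chr1:42695518-42695767, plus strand) were 60.8% GC, and those before the Pou3f2 start (chr4:22488367-22488616, minus strand) were 66.8% GC. They are shown because the widest regions of the loci lie over them. Neither contained the octamer or the variant, which occurred in 1.74% and 0.919% of all promoter windows. CCAAT, a motif chosen after the sequences were seen and marked in capitals, occurred 3 times before Pou3f3 and 2 times before Pou3f2. Of all promoter windows 2.79% held it 3 or more times and 10.09% held it 2 or more times.
Pou3f3 promoter: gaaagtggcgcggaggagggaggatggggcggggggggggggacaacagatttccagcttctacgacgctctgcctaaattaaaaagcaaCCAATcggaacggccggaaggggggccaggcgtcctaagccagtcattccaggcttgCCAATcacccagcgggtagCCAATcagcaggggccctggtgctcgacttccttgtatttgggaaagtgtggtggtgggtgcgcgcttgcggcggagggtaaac
Pou3f2 promoter: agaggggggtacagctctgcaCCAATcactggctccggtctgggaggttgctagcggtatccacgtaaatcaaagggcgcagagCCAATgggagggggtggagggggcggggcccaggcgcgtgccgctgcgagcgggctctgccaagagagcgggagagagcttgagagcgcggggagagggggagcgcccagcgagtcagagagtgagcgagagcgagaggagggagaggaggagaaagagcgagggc

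In the comparison of CTX with GE, 3 of the 15 tested regions changed, with 1 higher and 2 lower in CTX (edgeR quasi-likelihood test, p of at most 0.05 after Benjamini-Hochberg adjustment over 68274 regions). Of all tested regions 14.9% were called, 9.49% higher and 5.39% lower in CTX. A share of 3 in 15 is thus near the background. At an unadjusted edgeR p under 0.05 there were 7 of the 15 (28.3% of all tested regions), and DESeq2 called 6 (23.1%). The median log2 fold of the 15 was -0.29, against 0.03 over all tested regions, and 5 of the 15 folds were positive. The called regions were a pair beside Pou3f1 that moved in opposite directions and the region over the downstream part of Pou3f2.

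The region higher in CTX began 14.4 kb downstream of the Pou3f1 start (chr4:124671231-124675715, 4485 bp) and overlapped no gene body. It measured 65.7 and 55.7 scaled CPM in the CTX samples, 37.4 and 32.1 in MGE, 31.9 and 29.4 in LGE, and 29.4 and 31.5 in CGE. Both CTX samples lay above all 6 GE samples, which were close to each other. The log2 fold was 0.93 ± 0.12 (SE, edgeR adjusted p = 0.00505). Within the replicate 1 samples the log2 ratio of CTX to the mean of GE was 1.01, and within the replicate 2 samples it was 0.85.

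The region at -3.01 kb from the Pou3f1 start (chr4:124652383-124653793, 1411 bp, within Gm2164) was lower in CTX. Its levels were 1.84 and 1.75 scaled CPM in CTX, 6.58 and 4.72 in MGE, 3.82 and 5.00 in LGE, and 5.35 and 9.90 in CGE. The CTX samples lay below all GE samples, and the spread among GE samples was wide. The log2 fold was -1.68 ± 0.35 (SE, edgeR adjusted p = 0.0209). Peaks covered 686 and 634 bp of this region in CTX and 721 to 1323 in GE. Over 6 alternative fits, among them 1 with the covered length of the peaks as an offset, the fold was -1.89 to -0.97. The call was lost without MGE replicate 1, LGE replicate 2 or CGE replicate 2 (edgeR adjusted p up to 0.0587) and in a fit over all 178101 merged regions with enough counts (edgeR adjusted p = 0.0503), where 5.97% were called. Further upstream, at -39.2 kb, lay the largest CTX fold of any tested member region, with 2.13 and 0.607 scaled CPM in CTX and 3.32 to 7.43 in GE. It did not pass the test (log2 fold -1.92 ± 0.53 SE, edgeR adjusted p = 0.0537). Peaks covered 995 and 296 bp of it in CTX and 921 to 2538 in GE. No fold with the covered length as an offset is given here for this region.

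The Pou3f1 start region itself gave 65.2 and 35.3 scaled CPM in CTX, 109 and 90.8 in MGE, 62.9 and 76.2 in LGE, and 46.7 and 64.4 in CGE. CTX replicate 1 lay inside the range of the GE samples and CTX replicate 2 below it. The fold was not called (-0.54 ± 0.26 SE, edgeR adjusted p = 0.229). It rested on which CTX sample was used, at -1.02 without CTX replicate 1, which leaves CTX at E14.5, and -0.15 without CTX replicate 2. With the covered length of the peaks as an offset it was -0.12 (edgeR adjusted p = 0.704). The summed level of the 10 glutamatergic markers, at 1382 and 948 CPM, also differed between these samples, and its part in the result was not tested. By comparison, the region within Utp11, a gene for ribosomal RNA processing, lay 36.1 kb from the Pou3f1 start and measured 21.2 to 24.8 scaled CPM in all 8 samples.

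The Pou3f2 regions were both lower in CTX than in any GE sample. The start region measured 208 and 164 scaled CPM in CTX, 232 and 244 in MGE, 247 and 283 in LGE, and 221 and 219 in CGE. CTX replicate 1 lay close below the lowest GE samples, and CTX replicate 2 further below. The fold was not called (-0.37 ± 0.13 SE, edgeR adjusted p = 0.102). Without CTX replicate 1, which leaves CTX at E14.5, the fold was -0.52, and without CTX replicate 2 it was -0.20. The second region, 4.70 kb downstream of the start (chr4:22476186-22483668, 7483 bp, over the end of the gene), measured 39.2 and 33.1 in CTX, 48.6 and 55.2 in MGE, 56.5 and 66.2 in LGE, and 46.9 and 46.9 in CGE. Its groups did not overlap, and the fold was called (-0.55 ± 0.13 SE, edgeR adjusted p = 0.0330). This call was lost when the covered length of the peaks was an offset (log2 fold -0.30, edgeR adjusted p = 0.304) and when any sample but CTX replicate 1 was left out (adjusted p up to 0.0992).

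The Pou3f3 domain measured 329 and 357 scaled CPM in CTX, 484 and 416 in MGE, 384 and 503 in LGE, and 326 and 410 in CGE. The ranges overlapped, since CGE replicate 1 was the lowest of all samples. The fold of CTX against GE was not called (-0.29 ± 0.15 SE, edgeR adjusted p = 0.278). The other tested region, 22.5 kb downstream of the start, ranged from 5.21 to 8.42 scaled CPM with a log2 fold of -0.02 ± 0.23 (SE).

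Over the 15 tested regions, 6 had no overlap between CTX and GE samples, 1 of them higher and 5 lower in CTX. All tested regions showed this in 24.4% of cases. The plot of folds by region shows 3 of the 4 tested upstream Pou3f1 regions and both Pou3f2 regions on the side of GE, and the region at 14.4 kb on the side of CTX. The remaining upstream region, at -34.7 kb, had a fold of -0.073, with CTX replicate 1 (4.90 scaled CPM) above and CTX replicate 2 (0.547) below all GE samples (2.52 to 3.40).

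**Figure D1:**
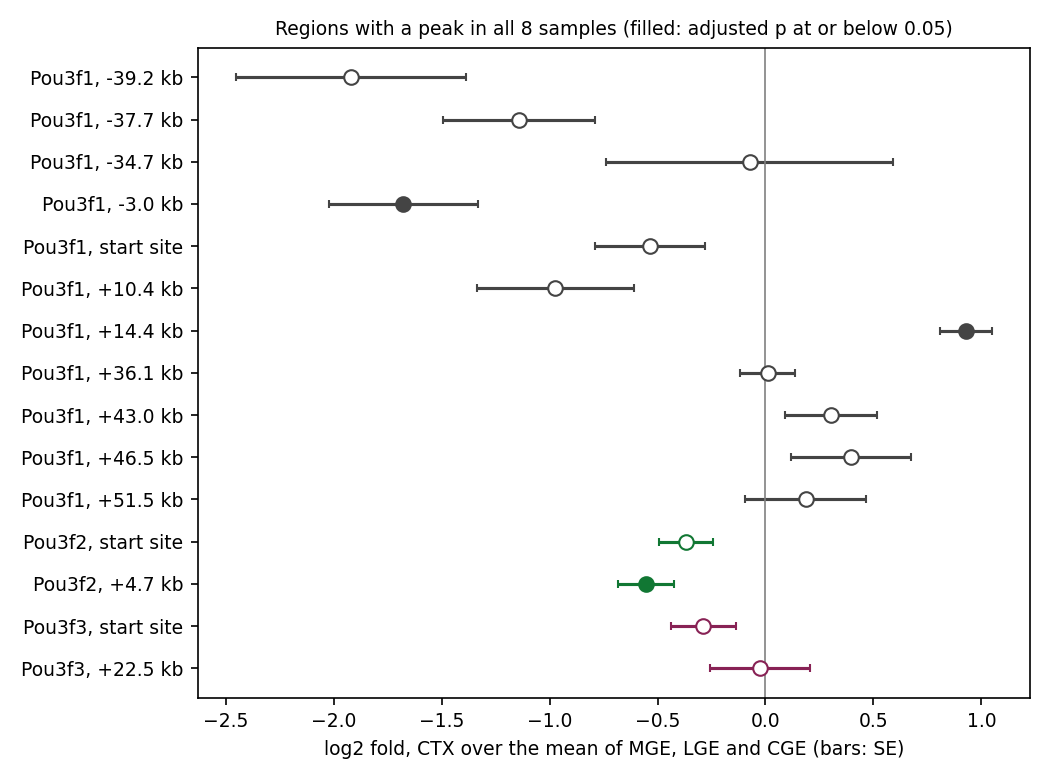
Log2 fold of CTX against GE for the 15 tested member regions, named by gene and distance from the gene start in kb, with bars of 1 SE from the edgeR fit and the 3 called regions filled. The region 14.4 kb from the Pou3f1 start is at 0.93 and the called regions on the other side are at -1.68 and -0.55.

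Regions without a peak in every sample included 1 with a strong CTX signal. It lay at -45.7 kb from the Pou3f3 start (chr1:42647896-42650034, 2139 bp, within Pantr1). It measured 17.1 and 66.3 scaled CPM in CTX replicates 1 and 2, 1.32 and 3.21 in MGE, and no peak was listed there in LGE or CGE. Both CTX samples lay above all GE samples. As a difference in scaled CPM, though not as a ratio, the CTX samples were further apart than CTX replicate 1 was from GE. The fit over all merged regions called it, but with samples that list no peak there entered as 0, so that call is not a test and no fold is given. Of the 18 Pou3f3 regions that lacked a peak in some sample, 6 had peaks in CTX samples only and 4 in GE samples only. Of the 14 such Pou3f1 regions the numbers were 3 and 2, and of the 3 such Pou3f2 regions 1 and 1. Over all 224258 merged regions of this kind 33.7% had peaks in CTX samples only and 31.2% in GE samples only.

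**Figure D2:**
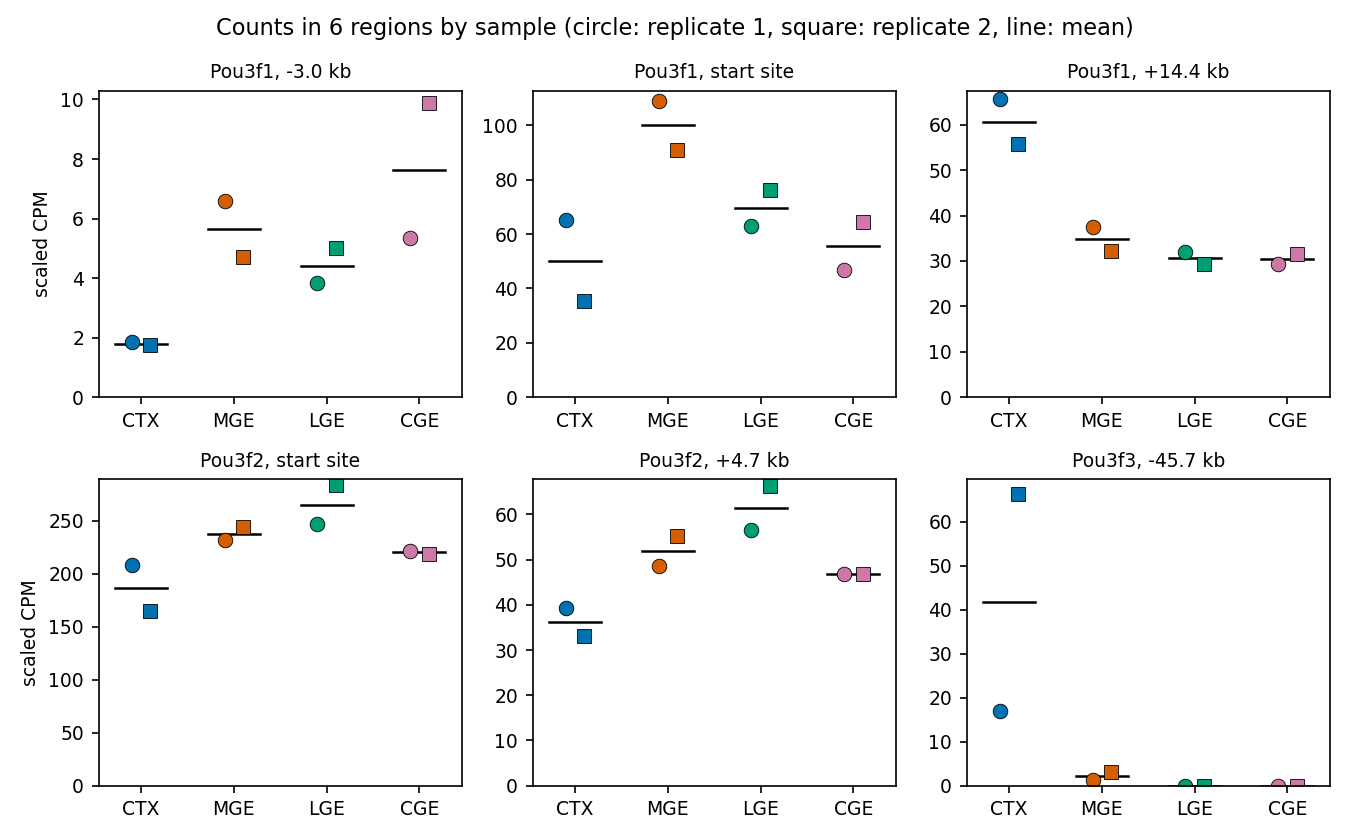
Scaled CPM in each of the 8 samples, by brain region with a line at the mean, for 6 regions named by gene and distance from its start. The 2 CTX points lie above all GE points for the region 14.4 kb from the Pou3f1 start (65.7 and 55.7) and for the region at -45.7 kb from the Pou3f3 start (17.1 and 66.3), where samples with no listed peak are drawn at 0.

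Among the eminences edgeR called none of the 15 tested regions in any of the 3 pairs. Of all tested regions it called 0.694% between MGE and LGE, 0.325% between MGE and CGE and 0% between LGE and CGE. Fits of all 8 samples take the spread from every group. The spread between the CTX samples, labelled E12.5 and E14.5, thus enters these eminence tests too. The largest fold was that of the Pou3f1 start region between MGE and CGE, 0.85 ± 0.31 (SE, edgeR adjusted p = 0.300), with both MGE samples above both CGE samples. This region was called when the eminence samples were fitted alone (log2 fold 0.85, edgeR adjusted p = 0.0408), a fit in which 9.40% of all regions were called, and when either CTX sample was left out. For the fits without a CTX sample the share of all regions called is not given here. The same region had the largest fold between MGE and LGE, 0.52 ± 0.30 (SE, edgeR adjusted p = 0.550). Its peaks covered 9283 and 9326 bp in MGE, 6101 and 8130 in LGE, and 6042 and 8275 in CGE. Over 7 alternative fits, among them the covered-length offset, its fold was 0.13 to 0.54 between MGE and LGE. Between MGE and CGE it was 0.47 to 0.88 over these fits. Between LGE and CGE the largest fold was -0.79 ± 0.38 (SE, edgeR adjusted p = 1.00), at the region -3.01 kb from the Pou3f1 start. For Pou3f2 the region at 4.70 kb had the largest fold in each pair, -0.24 ± 0.16 (SE) between MGE and LGE, 0.15 ± 0.16 between MGE and CGE and 0.39 ± 0.16 between LGE and CGE. For Pou3f3 the region at 22.5 kb had -0.39 ± 0.28 (SE) between MGE and LGE and -0.47 ± 0.28 between MGE and CGE, and the domain had 0.27 ± 0.18 between LGE and CGE. At an unadjusted edgeR p under 0.05 there were 0 member regions between MGE and LGE (13.5% of all tested regions), 1 between MGE and CGE (12.9%) and 2 between LGE and CGE (4.78%). DESeq2 called 0 in each pair, where it called 7.4%, 6.87% and 0.611% of all regions.

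Summed over 50 kb, Pou3f2 was the only member whose CTX and GE samples did not overlap. Of all tested regions 24.4% showed no overlap, and the share over all gene loci is not given here. Whether a locus without overlap is unusual was thus not tested. The Pou3f2 locus measured 248 and 198 scaled CPM in CTX, 281 and 302 in MGE, 303 and 351 in LGE, and 268 and 266 in CGE. Both CTX samples lay below all GE samples. The fold of -0.44 ± 0.12 (SE) was not called by edgeR (adjusted p = 0.0689), and was called by DESeq2 (adjusted p = 0.00393). Without CTX replicate 1, which leaves CTX at E14.5, the fold was -0.63, and without CTX replicate 2 it was -0.27. The ratio of CTX to GE was -0.19 (log2) within the replicate 1 samples and -0.62 within the replicate 2 samples.

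The Pou3f1 locus measured 238 and 192 scaled CPM in CTX, 270 and 223 in MGE, 200 and 218 in LGE, and 162 and 196 in CGE. The CTX samples lay inside the GE range and the fold was -0.00 ± 0.12 (SE, edgeR adjusted p = 0.994), with regions of opposite direction in the same sum. Over the gene body and 2 kb upstream alone the Pou3f1 folds were -0.68 in CTX against GE (edgeR adjusted p = 0.104), 0.71 between MGE and LGE and 0.99 between MGE and CGE, none of them called. Peaks of this window covered 9.28 and 9.33 kb in MGE and 4.78 and 3.88 in CTX. In LGE they covered 3.95 and 4.84 kb, and in CGE 3.86 and 5.21. Levels per covered kilobase were 11.8 and 9.74 scaled CPM in MGE and 10.1 and 8.94 in CTX. In LGE they were 13.4 and 13.5, and in CGE 10.1 and 10.8. The part of covered length in these folds was not tested. The Pou3f3 locus measured 378 and 441 in CTX, 492 and 430 in MGE, 392 and 514 in LGE, and 343 and 430 in CGE. Here too the groups overlapped, with a fold of -0.12 ± 0.12 (SE, edgeR adjusted p = 0.600). It was -0.41 over the gene body and 2 kb upstream (edgeR adjusted p = 0.247) and -0.33 with the covered-length offset (edgeR adjusted p = 0.207). None of the 3 loci was called by edgeR in any contrast. At an unadjusted edgeR p under 0.05 there were 1 in CTX against GE (Pou3f2) and 1 in MGE against CGE (Pou3f1, log2 fold 0.39), and DESeq2 called 1 in CTX against GE and 0 elsewhere. Over all loci 21.4% and 7.57% had such an unadjusted p in these contrasts, and DESeq2 called 11.9% in CTX against GE, 1.1% between MGE and LGE and 1.23% between MGE and CGE. Of the 19879 gene loci tested 6.24% were called in CTX against GE, 0.0503% between MGE and LGE, 0.0805% between MGE and CGE and 0% between LGE and CGE. Per kilobase covered by peaks in the 50 kb window the levels were 5.63 to 8.45 scaled CPM for Pou3f1. They were 7.69 to 13.3 for Pou3f3 and 11.7 to 18.2 for Pou3f2. Pou3f2 was thus highest per covered kilobase in 8 of 8 samples, and Pou3f1 and Pou3f3 were at nearly the same level in CTX replicate 1.

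Nuclei of different classes were compared after clustering on regions outside the 3 loci. Clusters were named from fixed marker lists, and Pou3f levels in classes are CPM of the counts of that class. Many clusters held 1 library or 1 replicate set for the most part. At resolution 0.5 most progenitor-like nuclei lay in cluster 3, mainly of replicate 2 samples, and cluster 4, mainly of replicate 1 samples. GABAergic-like nuclei lay in cluster 1, mainly of MGE, and cluster 8, mainly of LGE and CGE. Clusters 9 and 10, both glutamatergic-like, came from CTX replicate 1. Clusters 7 and 12 came from CTX replicate 2 and stayed unnamed, so 82.8% of that sample had no class. Cluster 2, with as many progenitor as GABAergic markers raised (4 each), also stayed unnamed and held 3325 nuclei of MGE replicate 1 and 1289 of MGE replicate 2, and the unnamed cluster 6 held 694 to 1267 nuclei of each LGE and CGE sample. The few MGE nuclei called progenitor-like at this resolution came from clusters 3 and 4, which were mainly of LGE and CGE. Glutamatergic-like nuclei made up 95.9% of CTX replicate 1 and 11.02% of CTX replicate 2. No doublets were removed.

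Pou3f2 accessibility fell from progenitor-like to GABAergic-like nuclei in every eminence sample. Progenitor-like and GABAergic-like levels were 352 and 245 CPM in MGE replicate 1, 439 and 232 in MGE replicate 2, 396 and 288 in LGE replicate 1, 413 and 280 in LGE replicate 2, 388 and 254 in CGE replicate 1, and 352 and 208 in CGE replicate 2. All 6 progenitor-like levels lay above all 6 GABAergic-like levels. The mean log2 ratio was -0.64 ± 0.17 (SD, n = 6), with an exact two-sided sign-flip permutation p of 0.03125, the smallest that 6 samples can give, and 0.0469 after adjustment over the 3 members. The share of all gene loci that moved in 1 direction in 6 of 6 samples is not given here. Whether such a result is unusual for a locus was thus not tested for any of the 3 members. The MGE progenitor-like classes held only 87 and 50 nuclei at this resolution. At resolution 1.0, where they held 2712 and 740, the ratio was -0.61 and again lower in 6 of 6 samples.

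Pou3f1 moved the other way. Levels rose from 157 to 288 CPM and from 152 to 240 in the MGE samples, from 203 to 214 and from 206 to 241 in LGE, and from 158 to 161 and from 173 to 209 in CGE. At this resolution the 2 MGE samples, with their 87 and 50 progenitor-like nuclei, rose most, and CGE replicate 1 hardly moved. The mean log2 ratio was 0.36 ± 0.34 (SD, n = 6, exact sign-flip permutation p = 0.03125, adjusted 0.0469). At resolution 1.0 it was 0.22 and higher in 6 of 6 samples, and the MGE samples no longer stood apart, with log2 ratios of 0.14 and 0.34 in MGE against 0.13 to 0.31 in the other 4. Over the gene body and 2 kb upstream the mean log2 ratio was 0.65 at resolution 0.5, again higher in 6 of 6.

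Pou3f3 did not pass the test at resolution 0.5, with a mean log2 ratio of -0.10 ± 0.20 (SD, n = 6, exact sign-flip permutation p = 0.3125), and the direction differed between samples. It was higher in GABAergic-like nuclei in both MGE samples and lower in the 4 LGE and CGE samples. At resolution 1.0 it was lower in GABAergic-like nuclei in 6 of 6 samples, with a mean log2 ratio of -0.33 (exact sign-flip permutation, adjusted p = 0.03125). The plot of class levels shows Pou3f2 as the member with the widest gap between the classes.

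**Figure D3:**
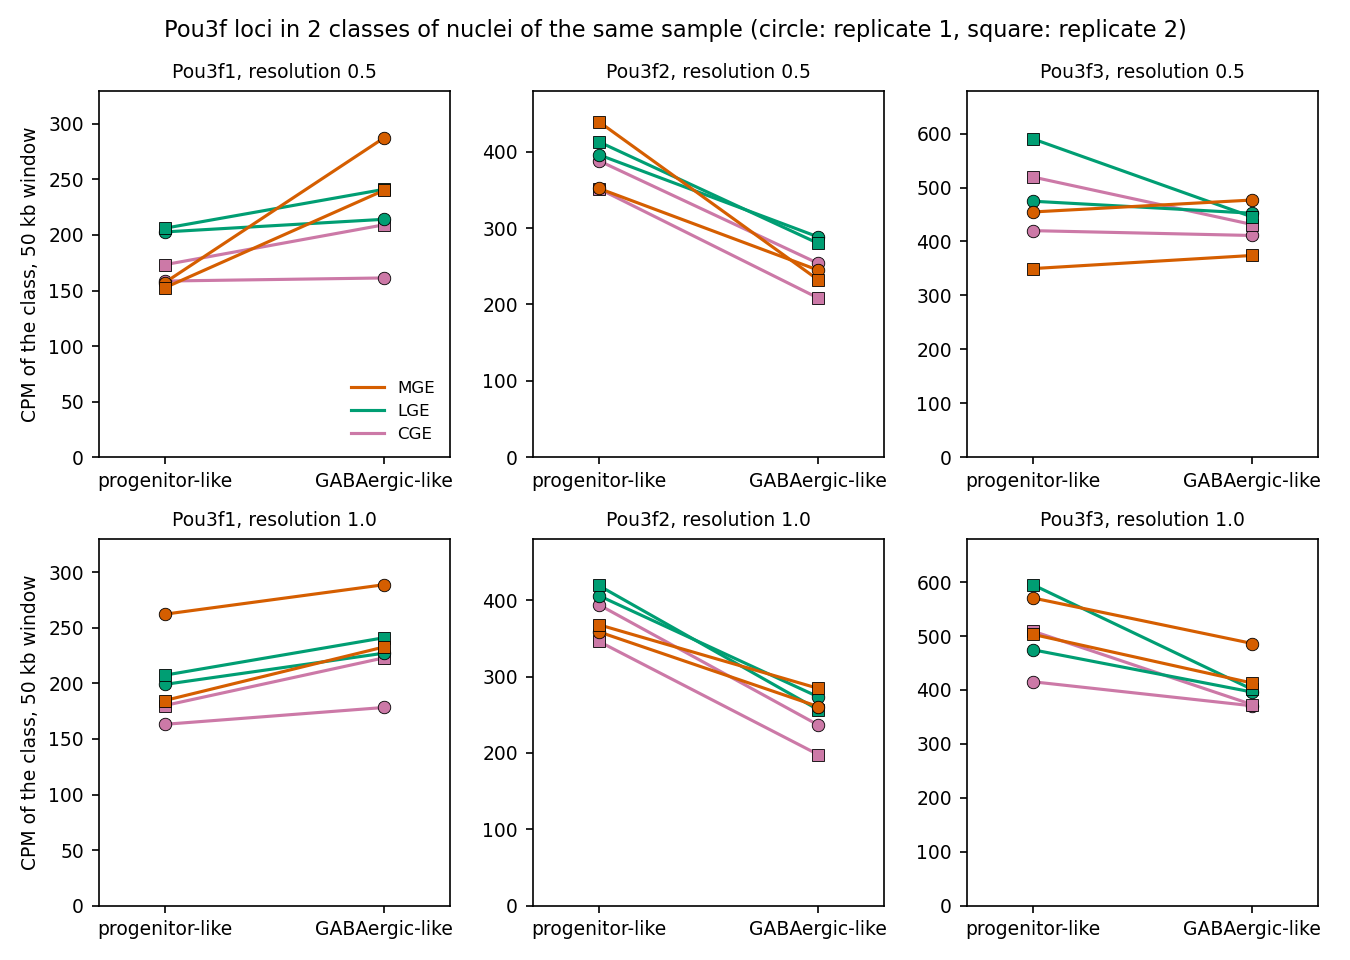
CPM of the 3 Pou3f loci in progenitor-like and GABAergic-like nuclei of the 6 eminence samples, at resolution 0.5 (top row) and 1.0 (bottom row), with a line joining the classes of each sample. All 6 lines fall for Pou3f2 and all 6 rise for Pou3f1 in both rows, and for Pou3f3 the 2 MGE lines rise only in the top row.

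In CTX, progenitor-like nuclei were found only at resolution 1.0 and only in replicate 1 (803 nuclei). Their Pou3f2 level was 334 CPM, against 195 in the glutamatergic-like nuclei of the same sample. The Pou3f3 levels were 426 and 308, and the Pou3f1 levels 184 and 204. The 137 GABAergic-like nuclei of this sample had a Pou3f1 level of 169 CPM, below its progenitor-like nuclei and so opposite in direction to the eminence samples. With 1 sample there is no test. Endothelial-like nuclei were found in numbers of 50 or more in 3 samples. Their cluster also raised 5 mural or mesenchymal markers, and at resolution 1.0 the 276 such nuclei of CTX replicate 2 were split into 90 endothelial-like and 186 mural- or mesenchymal-like nuclei. Pou3f2 was low in the cluster (65.4 to 148 CPM), a range that also held the 137 GABAergic-like nuclei of CTX replicate 1 (75.1). Pou3f3 was at 95.2 to 239 CPM and Pou3f1 at 290.1 to 321. That Pou3f1 sum was carried by regions within Fhl3, a gene for a LIM-domain protein, where the region 46.5 kb from the Pou3f1 start measured 55.8 to 82.7 CPM in endothelial-like nuclei and 7.09 to 17.9 in progenitor-like nuclei. The Pou3f1 start region was at 29.5 to 58.5 CPM in endothelial-like and at 40.1 to 70.4 in progenitor-like nuclei.

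The regions of the Pou3f1 locus were divided between classes. The region at 14.4 kb, called higher in CTX, was highest in glutamatergic-like nuclei in 5 of the 5 samples that held the 3 neural classes at resolution 1.0 or in 4 of 5 at resolution 0.5. At resolution 1.0 glutamatergic-like levels were 58.6 CPM in CTX replicate 1, 68.2 and 77.3 in LGE, and 64.2 and 71.8 in CGE. CTX replicate 2, without a progenitor-like class, had 86.8. Progenitor-like nuclei had 43.8 CPM in CTX replicate 1 and 20.2 to 31.5 in the 6 eminence samples, and GABAergic-like nuclei had 21.6 to 45.0 over 7 samples. On this scale glutamatergic-like levels in LGE and CGE were above that in CTX replicate 1, while progenitor-like levels were below that in CTX replicate 1. Class levels carry no TMM factor, which was 0.851 for CTX replicate 1 and 1.00 to 1.10 for LGE and CGE samples. The order of the glutamatergic-like levels between libraries thus depends on the scale. At resolution 0.5 nuclei named glutamatergic-like made up 95.9% and 11.02% of the CTX samples, 10.5% to 26.9% of the LGE and CGE samples, and 0.263% and 1.82% of the MGE samples. At resolution 1.0 these shares were 76.3% and 11.04% in CTX, 5.49% to 13.95% in LGE and CGE, and 0.146% and 0.462% in MGE. The unnamed cluster 7, with 3568 nuclei of CTX replicate 2, raised 3 glutamatergic markers. The part of these shares in the difference between CTX and GE was not tested. The region at -3.01 kb, called lower in CTX, was also highest in glutamatergic-like nuclei in 4 of 5 samples at resolution 1.0 and in 3 of 5 at resolution 0.5. At resolution 1.0 it measured 1.58 to 24.4 CPM in glutamatergic-like, 1.46 to 13.1 in progenitor-like and 0 to 6.64 in GABAergic-like nuclei.

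Other regions of Pou3f1 had other orders of the classes. The region at 10.4 kb was highest in GABAergic-like nuclei in 5 of 5 samples, at 16.4 to 30.4 CPM against 3.42 to 14.3 in progenitor-like and 3.62 to 12.4 in glutamatergic-like nuclei. The start region was higher in GABAergic-like than in progenitor-like nuclei in 6 of 6 eminence samples (mean log2 ratio 0.50), and so was the region at -39.2 kb (2.28). In both regions glutamatergic-like nuclei were also above progenitor-like nuclei in 5 of 5 samples at resolution 1.0. Glutamatergic-like nuclei were highest in 1 of 5 for the start region and in 2 of 5 for the region at -39.2 kb, and GABAergic-like nuclei in 4 and 3. The regions within Fhl3 at 43.0 and 46.5 kb were higher in progenitor-like nuclei in 6 of 6 (-0.81 and -1.54). These ratios are at resolution 1.0 and are given without a test.

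**Figure D4:**
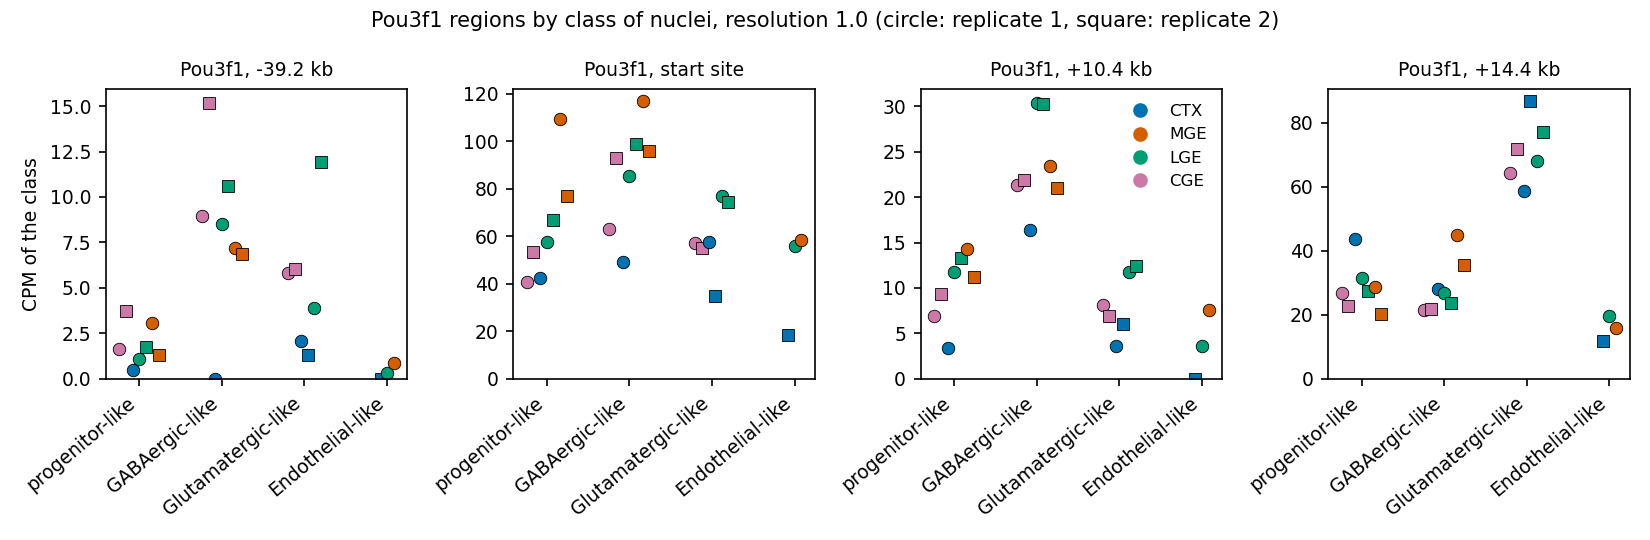
CPM of 4 regions of the Pou3f1 locus, at -39.2 kb, over the start, at 10.4 kb and at 14.4 kb, by class of nuclei at resolution 1.0, 1 point per sample, coloured by brain region. The region at 14.4 kb is highest in glutamatergic-like nuclei (58.6 to 86.8) and the region at 10.4 kb in GABAergic-like nuclei (16.4 to 30.4).

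At Pou3f2 and Pou3f3 the wide regions were highest in progenitor-like nuclei. The Pou3f2 start region measured 285 to 339 CPM in progenitor-like nuclei at resolution 1.0, 56.3 to 228 in GABAergic-like and 139 to 230 in glutamatergic-like nuclei, and was highest in progenitor-like nuclei in 5 of 5 samples. The lowest GABAergic-like value came from 137 nuclei of CTX replicate 1. The Pou3f3 domain measured 359 to 587 CPM in progenitor-like, 347 to 477 in GABAergic-like and 257 to 399 in glutamatergic-like nuclei, with progenitor-like nuclei highest in 5 of 5 samples. At resolution 0.5 they were highest in 4 of 5, and the domain was higher in GABAergic-like than in progenitor-like nuclei in 2 of 6 eminence samples. The small region at 22.5 kb from the Pou3f3 start differed from the domain. It was highest in GABAergic-like nuclei in 5 of 5 samples, at 6.65 to 14.7 CPM against 1.56 to 6.33 in progenitor-like nuclei.

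The CTX region at -45.7 kb from Pou3f3 was concentrated in a part of the CTX nuclei. In CTX replicate 2 it measured 73.9 CPM in cluster 7 (3568 nuclei), 24.8 in cluster 12 and 4.07 in the glutamatergic-like cluster 5. In CTX replicate 1 it measured 18.3 CPM in cluster 9 and 2.03 in cluster 10. At resolution 1.0 the progenitor-like nuclei of that sample had 46.5 CPM and the glutamatergic-like nuclei 9.98. Progenitor-like nuclei of the GE samples had at most 4.84 CPM at resolution 1.0 (740 nuclei of MGE replicate 2). At resolution 0.5 they had at most 3.54, from 3 counts in 50 nuclei of the same sample. LGE and CGE samples, with no listed peak there, entered as 0.

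The other members of the POU family gave few differences. Of 12 further POU genes edgeR called 0 higher and 1 lower in CTX against GE and 0 among the eminences, and 4 had an unadjusted p under 0.05 in CTX against GE, 1 between MGE and LGE, 2 between MGE and CGE and 1 between LGE and CGE. Over all loci the shares with such a p were 21.4%, 6.04%, 7.57% and 1.45%, beside the 6.24% called in CTX against GE. DESeq2 called 3 in CTX against GE (Pou1f1, Pou3f4 and Pou4f2), where it called 11.9% of all loci, and 1 in LGE against CGE (Pou5f2), where it called 0.222%. The called gene was Pou4f2, a factor of retinal ganglion cells, whose locus measured 35.1 and 35.6 scaled CPM in CTX and 42.8 to 61.4 in GE (log2 fold -0.59 ± 0.11 SE, edgeR adjusted p = 0.0239). The call was lost without MGE replicate 1, either LGE sample or CGE replicate 2 (edgeR adjusted p up to 0.0840), with the covered-length offset (edgeR adjusted p = 0.227) and within 1 kb of a start site (edgeR adjusted p = 0.118). Pou1f1, the pituitary factor, had the largest fold, with 40.8 and 42.3 in CTX and 21.3 to 29.8 in GE (0.62 ± 0.17 SE, edgeR adjusted p = 0.0682). Pou3f4, the remaining class III gene, lay at 58.7 and 66.7 in CTX and 72.8 to 91.4 in GE (-0.45 ± 0.12 SE, edgeR adjusted p = 0.0758), which places it beside Pou3f2 in direction, without overlap of the groups. It was named after its values were seen. The median fold of the 12 was -0.08 in CTX against GE, and 0.01 over all genes. Among the eminences the largest folds were those of Pou5f2, -1.07 for MGE and -1.49 for LGE, each against CGE, and 0.42 for MGE against LGE, none of which edgeR called. Next in size were 0.35 for Pou4f1 between MGE and LGE and 0.23 for Pou2f1 between LGE and CGE. Pou5f2 measured 35.1 and 42.6 scaled CPM in CGE and 13.8 to 25.9 in the other 6 samples.

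Of 7 partners and known targets of class III POU factors 0 were called in any contrast by edgeR or DESeq2, and 2 had an unadjusted edgeR p under 0.05 in CTX against GE and 1 in MGE against CGE. Over all loci 21.4% and 7.57% had such a p in these contrasts. In CTX against GE edgeR called 6.24% and DESeq2 11.9% of all loci. Myt1l, a neuronal repressor that acts beside Pou3f2 in reprogramming, measured 811 scaled CPM in CTX replicate 1 and 389 to 500.4 in the other 7 samples, and its fold was 0.38 ± 0.23 (SE, edgeR adjusted p = 0.394). Nes, a progenitor filament gene with a POU-bound enhancer, measured 266 and 317 in CTX and 282 to 496 in GE (-0.34 ± 0.13 SE, edgeR adjusted p = 0.180). In MGE against CGE its fold was 0.46 ± 0.15 (SE, edgeR adjusted p = 0.604). The 2 largest folds in each pair of eminences were those of Sox11 and Fabp7 between MGE and LGE (0.30 and -0.24), of Nes and Sox2 between MGE and CGE (0.46 and 0.28), and of Myt1l and Nes between LGE and CGE (-0.24 and 0.22). The median fold of the 7 in CTX against GE was -0.14.

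The genes with the most similar locus levels over the 8 samples were Cpsf4l (Pearson r = 0.965), Mrpl43 (0.964) and 1110038F14Rik (0.958) for Pou3f1. For Pou3f2 they were Tet1 (0.977), Slc1a2 (0.977) and Gm8281 (0.963), and for Pou3f3 Anp32b (0.974), Mrgprf (0.969) and Fzd2 (0.961). Each was ranked among 19873 to 19878 genes over 8 samples that share depth and replicate set, so the values are a description. The members were less like each other, with r of 0.195 for Pou3f1 and Pou3f2, 0.394 for Pou3f1 and Pou3f3, and 0.276 for Pou3f2 and Pou3f3.

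The POU motif rows hold the deposited count of each motif in each nucleus, summed over the nuclei of a sample, and are given as scaled CPM of all motif counts. None of the 15 POU motifs was called in any of the 4 contrasts, and none of the 579 motifs was (0% by edgeR). At an unadjusted edgeR p under 0.05 there were 1 POU motif in CTX against GE and 3 between LGE and CGE (21.8% and 9.84% of all motifs), with 0 between MGE and LGE and 0 between MGE and CGE (5.01% and 2.07%). DESeq2 called 1 POU motif in CTX against GE, where it called 18.8% of the motifs it tested, and 0 elsewhere, where it called 1.38% (MGE and LGE) and 0.691% (either of these and CGE).

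POU6F1 had a log2 fold of 0.54 ± 0.30 in CTX against GE (SE, edgeR adjusted p = 0.348), which rested on CTX replicate 2 with 702 scaled CPM, while CTX replicate 1 had 385 and the GE samples 294 to 566.

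The motifs named for the members did not separate CTX from GE. POU3F1 measured 636 and 641 scaled CPM in CTX and 600 to 903 in GE (log2 fold -0.14 ± 0.13 SE, edgeR adjusted p = 0.587). POU3F2 measured 545 and 608 in CTX and 530 to 825 in GE (-0.23 ± 0.15 SE, adjusted p = 0.447 by edgeR). POU3F3 measured 643 and 659 in CTX and 590 to 884 in GE (-0.09 ± 0.11 SE, adjusted p = 0.658 by edgeR). All 3 had their highest value in LGE replicate 1 and, among the GE samples, their lowest in CGE replicate 2. POU3F4 was at a higher level, 1579 to 1789 scaled CPM, and its counts were identical to those of POU5F1B in all 8 samples, so these 2 rows are 1 measurement.

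A further 8 motif rows also overlapped between CTX and GE. POU2F2 measured 751 and 738 scaled CPM in CTX and 711 to 1069 in GE. POU4F2 measured 544 and 610 in CTX and 535 to 795 in GE, POU4F3 897.5 and 1042 against 884 to 1385, and POU5F1 698 and 687 against 601 to 838. Together with Pou2f3, POU1F1, POU2F1 and POU4F1 these rows had log2 folds from -0.18 (POU2F2) to -0.071 (POU5F1), none of them called.

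LGE replicate 1 was the highest sample in 11 of the 15 POU rows, and CGE replicate 2 the lowest in 11. The median fold of the 15 was 0.27 in LGE against CGE and -0.21 in MGE against LGE, while the medians over all 579 motifs were 0.01 in both. In CTX against GE it was -0.10, against -0.04, and in MGE against CGE 0.05, against 0.03. The rows share binding sites and are not independent of each other.

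**Figure D5:**
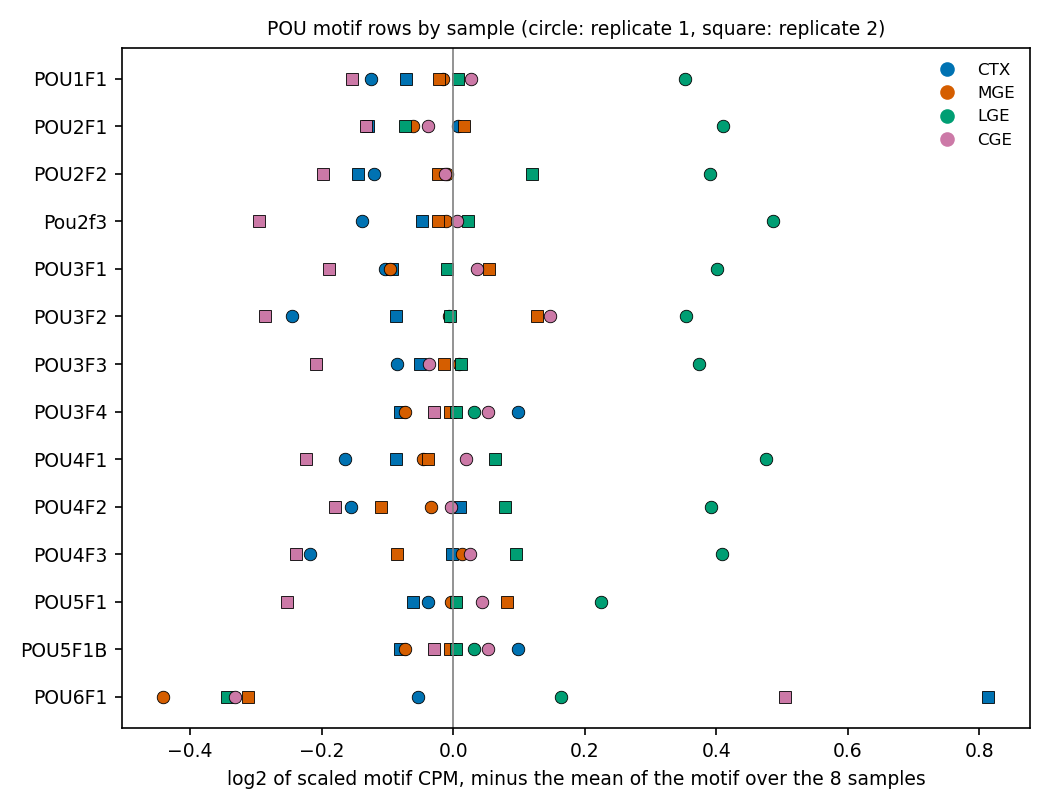
Scaled CPM of the POU motif rows in the 8 samples relative to the mean of each row, on a log2 scale, coloured by brain region. LGE replicate 1 lies highest in 11 of the rows shown.

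Regions whose central 300 bp held the octamer (1751, or 2.56% of all tested) had a median log2 fold of -0.00 in CTX against GE, where all tested regions had 0.03. Of them 9.77% were called higher and 9.94% lower in CTX, against 9.49% and 5.39% of all regions. Regions with the variant (1119) were called higher in 12.6% and lower in 9.38%. In MGE against LGE and MGE against CGE the octamer regions had medians of -0.11 and -0.13, and all tested regions were within 0.01 of 0. These shares are descriptions, since a match is not evidence that a factor is bound.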

How the data were processed

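Single-nucleus ATAC-seq libraries of 8 samples were used. The authors deposited, per sample, a peak list and raw counts per nucleus for each peak and each motif, not normalized. Their processing notes name Cell Ranger ATAC 1.2.0, GRCm38 and mm10. No source used here gives the filter on nuclei. Most deposited counts were even, and odd entries made up 9.55% to 10.4% in replicate 1 samples and 5.17% to 5.85% in replicate 2 samples. Total counts per sample were 77387940 to 138873845.

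Nuclei are not replicates, so their counts were added up within each sample. Peaks were merged over the samples, and the 68274 of 292532 regions with a peak in all 8 were tested, as were 50 kb sums of 19879 gene loci and 579 motifs. Tests used edgeR 4.0.16 in R 4.3.3 (glmQLFit, glmQLFTest, TMM, filterByExpr, 1 model of 4 groups), with CTX against the mean of MGE, LGE and CGE and the 3 pairs of eminences as contrasts. Features with p of at most 0.05 after Benjamini-Hochberg adjustment were called. DESeq2 1.42.0 was an alternative. Covered length is the length called as peak in a sample. Distances run from the gene start to the nearest edge of a region. Sums over 50 kb grow with covered length.

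Nuclei were clustered on the 68259 tested regions outside the 3 loci (TF-IDF, 30 components, 20 neighbours, Leiden clustering with leidenalg 0.10.2 at resolution 0.5 or 1.0). A cluster was called "-like" where at least 3 markers of a list reached 10 CPM with a log2 fold over 0.5, with a mean above 0.25 over the list and no other list ahead. Classes with fewer than 50 nuclei in a sample were left out there. No doublet caller was run. The clustering used regions of the same nuclei, and class names rest on rebuilt clusters.

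Described were each member, its start region, its called regions and the largest fold per contrast, every POU motif, and from the lists the called genes and the 2 largest folds per contrast, except 1 motif and 1 gene that are not reported here. The members and lists were chosen with earlier results of these data known. The paper given for reading reports another assay, so only the labels describe this experiment. The fits were tested on simulated data.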

Additional observations from a re-analysis of the deposited data

Results flagged for a closer look

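Samples that stand far from the other 5 of the GE samples by Dixon's ratio (the gap to the nearest sample divided by the whole range) were sought in 36 sets of values, and chance gives about 1 such set in 20. The region 14.4 kb from the Pou3f1 start had a ratio of 0.661, with MGE replicate 1 at 37.4 scaled CPM above the other 5 at 29.4 to 32.1. LGE replicate 1 was the distant high sample in 6 POU motif rows, with ratios of 0.657 for Pou2f3, 0.683 for POU1F1, 0.762 for POU2F1, 0.637 for POU3F1, 0.669 for POU3F3 and 0.648 for POU4F1. In POU2F1 it measured 800 scaled CPM against 549 to 609 in the other GE samples. These rows share binding sites, so the 6 ratios are not separate events.

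The change of Pou3f3 from progenitor-like to GABAergic-like nuclei went up in both MGE samples and down in both LGE and both CGE samples at resolution 0.5. The mean log2 ratio in CGE was -0.23 relative to MGE, and that in LGE was -0.32 relative to MGE. The difference was not tested. The MGE progenitor-like classes behind it held 87 and 50 nuclei, and at resolution 1.0, where they held 2712 and 740, all 6 samples went down.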

How the results depend on the processing

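The number of called member regions in CTX against GE was 3, and it was 6 with DESeq2, 7 with total counts as library size (an alternative chosen after seeing the data) and 1 to 8 when single samples were left out, with 8 without CTX replicate 1 and 1 without MGE replicate 1, LGE replicate 2 or CGE replicate 2. Of all regions 14.9% were called as reported, and 23.1%, 14.7%, 24.2%, 8.64%, 7.84% and 6.26% in these, in the same order. The region 14.4 kb from the Pou3f1 start was called in each of these settings (log2 fold 0.83 to 1.05 without single samples). The region at -3.01 kb was lost over all merged regions (edgeR adjusted p = 0.0503), where 3 member regions and 5.97% of all were called. The 3 include the region at -45.7 kb from the Pou3f3 start, whose call is not a test. In MGE against CGE 1 region was called with the eminence samples alone, and 0 to 1 without single samples (edgeR). Of the loci 1 was called in CTX against GE with DESeq2, 1 with total counts, and 0 to 1 without single samples. DESeq2 called 11.9% of all loci in that contrast, and these counts over 3 loci are not read as a result about the members. Of the POU motifs 1 was called with DESeq2, where it called 18.8% of the motifs it tested. Counts of calls over all regions moved by more than 1.5 times too: CTX against GE gave 10160 calls with edgeR, 15780 with DESeq2, 6260 with the covered-length offset and 4274 to 17986 without single samples. With total counts 4545 regions were called higher and 5492 lower in CTX, against 6479 and 3681.

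The mean log2 ratio of GABAergic-like to progenitor-like nuclei ranged from 0.25 to 0.42 for Pou3f1 and from -0.68 to -0.58 for Pou3f2 without single samples, where 5 samples cannot pass the threshold (smallest exact p 0.0625). With LGE and CGE only, chosen after seeing the data, it was 0.15 and -0.60, and 0.21 and -0.71 at resolution 1.0 (smallest exact p 0.125). For Pou3f3 it was -0.33 and called at resolution 1.0.

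Some directions turned, none of them called. The Pou3f3 domain in MGE against LGE (0.02) was -0.0365 with the covered-length offset, -0.0185 with total counts and -0.16 to 0.23 without single samples. The Pou3f1 locus in CTX against GE was 0.13 with the covered-length offset and -0.19 to 0.16 without single samples, and in MGE against LGE -0.0714 with that offset. The Pou3f2 locus in MGE against CGE was -0.0472 over the gene body and 2 kb upstream, -0.0757 within 1 kb of a start site and -0.0346 to 0.13 without single samples. In LGE against CGE Pou3f2 and Pou3f3 went from 0.26 and 0.20 to -0.0143 and -0.0312 within 1 kb of a start site. The Pou3f3 locus in MGE against LGE was 0.0499 over the gene body and 2 kb upstream, 0.22 within 1 kb and -0.12 to 0.12 without single samples. The cause was not tested.

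Shared replicate numbers were not taken as pairs, since deviations of same-numbered samples did not all correlate: from -0.042 (MGE and CGE) to 0.32 (LGE and CGE) over regions, 0.081 to 0.36 over loci and -0.45 to 0.42 over motifs. Among the eminences alone the motif correlations were 0.28 to 0.42, and clusters 3 and 4 and the odd entries split by replicate number. With a replicate block the same 3 regions were called in CTX against GE, with 0 loci and 0 motifs, and no other call of a member changed. That fit called 13.7% of all tested regions in CTX against GE. Among all regions the block moved the calls from 474 to 9 in MGE against LGE and from 222 to 3 in MGE against CGE.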
